A study of Mus musculus with 18 samples.

Results

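The aminoacyl-tRNA synthetases of mouse brain were described in 3 wild-type (WT) and 3 Ftsj1 knockout (KO) mice. The genes comprised the cytosolic synthetases, mitochondrial ones whose symbols end in 2, and the auxiliary genes Aimp1, Aimp2 and Eef1e1. Fars2 was taken as a mitochondrial member, whereas the mitochondrial Ears2 and Pars2 were placed among the related enzymes below. Members were chosen by symbol, and each gene was read from the transcript accession with most counts over the 12 mRNA libraries. The rule found 38 genes, 20 cytosolic, 15 mitochondrial and 3 auxiliary, of which 31 had at least 1 count. The whole transcript table held 106519 rows, 31089 of them with at least 1 count.

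All 6 animals were untreated C57BL/6 males aged 8 weeks. Ftsj1 encodes a methyltransferase that modifies the anticodon loop of tRNA-Phe and of some other tRNAs. Each mouse gave a library of total polyadenylated mRNA, a library of ribosome-contained mRNA (fragments protected by ribosomes) and a smaller library of ribosome-contained mRNA read as the codon in the A site, where a charged tRNA enters the ribosome. The labels give neither the Ftsj1 allele nor whether the deletion was limited to some cells, and both Ftsj1 accessions had a count of 0 in all 12 mRNA libraries, WT included, so the table could not check the genotypes.

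Aminoacyl-tRNA synthetases join amino acids to their tRNAs, which then carry them to the ribosome. Most of the enzymes are specific to a single amino acid, whereas Eprs encodes one that serves both glutamate and proline. Cytosol and mitochondria mostly use enzymes from different genes, all of them in the nucleus. In the cytosol of mammals several of them are bound together in a multi-synthetase complex, which the proteins encoded by Aimp1, Aimp2 and Eef1e1 help to assemble, and inherited defects of synthetases in humans are known for disease of nerve and brain.

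Total mRNA libraries held between 2024748 and 3459406 counts, ribosome-contained libraries between 1055741 and 1560192, and A-site libraries between 48481 and 70947 sense codons. Among markers fixed for other cells, the summed level of 5 choroid plexus genes lay at 2319 to 2560 normalized counts per 1e6 (CPM) in WT and 2896 to 2931 in KO total mRNA, and at 4963 to 5521 in WT and 6564 to 7331 in KO ribosome-contained mRNA. Oligodendrocyte markers summed to 504 to 518 CPM in WT and 446 to 502 in KO total mRNA. The genotypes did not overlap in these sums, and the part of these cells in the values below was not tested. The sums of oligodendrocyte markers in ribosome-contained mRNA and of the other marker lists in both kinds overlapped between genotypes. Neuron markers lay between 9249 and 10709 CPM in all groups. Mag (oligodendrocytes), Csf1r (microglia) and Pecam1 (endothelium) were listed at 0. The 3 liver markers summed to between 0 and 4.36 CPM.

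Measured synthetases were a minority of the family. Of the 38 genes, 7 had no count, 21 had some but fewer than 120 counts over the 12 libraries, and 10 had at least 120. Those 10 were 6 cytosolic enzymes (Dars, Gars, Hars, Qars, Rars and Tars), 2 mitochondrial ones (Iars2 and Mars2), and Aimp1 and Eef1e1. Gars, the glycine enzyme, had the most with 16217 counts, followed by Qars (glutamine) with 4329, Hars (histidine) with 4225, Dars (aspartate) with 2326, Rars (arginine) with 2238, Aimp1 with 2065, Tars (threonine) with 1733, Mars2 (mitochondrial methionine) with 1596, Iars2 (mitochondrial isoleucine) with 1182 and Eef1e1 with 1136. Just under the limit of 120 lay Vars, the valine enzyme, with 113 counts.

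Coverage differed with the number of transcript models. Of 9 members with 1 accession in the table, 8 had at least 120 counts and Lars2 had none. Of 29 members with 2 or more accessions, Dars and Iars2 reached 120. Among all protein-coding genes, 39.5% of 9006 with 1 accession and 15% of 12226 with more reached it. A count of 0 allows up to 3 counts in a library, or 0.877 to 1.49 CPM in total mRNA and 1.95 to 2.89 CPM in ribosome-contained mRNA, a limit that covers counting error only. For a gene with several accessions neither a 0 nor a low count bounds its expression.

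**Figure D1:**
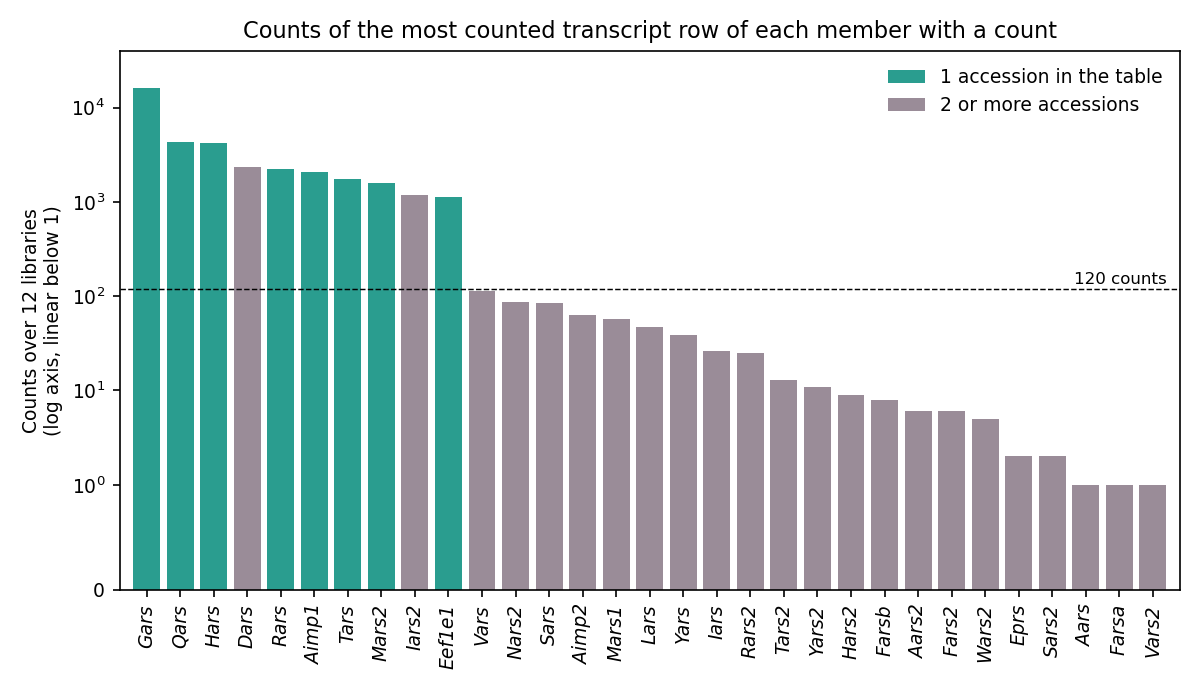
Bars give the counts over the 12 mRNA libraries of each of the 31 genes with at least 1 count, on a log axis, with genes of 1 accession coloured apart from genes of several; the dashed line is at 120 counts. Of the 10 genes above the line, 8 have a single accession.

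The phenylalanine enzymes fell in the unmeasured group. The cytosolic enzyme is built from the products of Farsa and Farsb, and Fars2 encodes the mitochondrial one. Farsa had 1 count in KO replicate 1 and 0 in the other libraries. Farsb had 1, 1 and 1 counts in the WT and 1, 2 and 2 in the KO total mRNA libraries. Fars2 had 0, 0 and 2 counts in WT and 3, 1 and 0 in KO total mRNA. All 3 genes were listed at 0 in each ribosome-contained library and none passed the filter on low counts.

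Gars lies on chromosome 6 at 55038001 to 55079504 (GRCm38) and is known in humans to yield both the cytosolic and the mitochondrial glycyl-tRNA synthetase from a pair of start codons. The first 60 codons of the mouse coding sequence (GENCODE transcript) are shown because they hold in-frame ATG triplets at codon 1 and at codon 47 (coding base 139), in capitals.
Gars start: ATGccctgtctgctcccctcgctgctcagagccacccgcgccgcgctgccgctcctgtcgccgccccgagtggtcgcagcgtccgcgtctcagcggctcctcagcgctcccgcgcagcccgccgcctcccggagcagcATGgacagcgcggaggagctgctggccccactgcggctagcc
Counts per transcript do not tell the forms apart, so each value of Gars is for both together.

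Ftsj1 acts on tRNA-Phe, so the phenylalanine codons of the measured members were counted in the same GENCODE transcripts. They made up 5.21% of the codons of Gars (38 of 729), 4.99% of Dars and of Tars, 4.55% of Rars, 4.39% of Qars, 4.27% of Mars2, 3.46% of Iars2, 3.14% of Hars, 2.30% of Eef1e1 and 1.57% of Aimp1 (5 of 319). The median over 4046 rows tested in both kinds of library was 3.64%, with quartiles of 2.69% and 4.74%. The windows of 50 codons with most phenylalanine codons are shown for the genes highest (Gars) and lowest (Aimp1) in that share. TTT and TTC are in capitals, 7 in Gars and 3 in Aimp1.
Gars densest: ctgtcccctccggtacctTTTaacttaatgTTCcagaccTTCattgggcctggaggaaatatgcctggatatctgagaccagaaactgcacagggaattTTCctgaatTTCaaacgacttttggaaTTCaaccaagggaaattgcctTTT
Aimp1 densest: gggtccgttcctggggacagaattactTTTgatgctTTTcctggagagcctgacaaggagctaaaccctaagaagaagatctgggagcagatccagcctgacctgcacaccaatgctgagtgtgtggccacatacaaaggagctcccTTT
These windows cover codons 262 to 311 of Gars and 251 to 300 of Aimp1.

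Per length, Gars stood far above the rest in ribosome-contained mRNA. Its level was 503 ± 6.36 CPM per kilobase of coding sequence (SD over 6 mice of both genotypes, here and in the next 2 sentences), higher than 89.3% of 4120 rows of known coding length, whose median was 56.5. Hars followed at 158 ± 12.6 and Aimp1 at 135 ± 4.79, then Qars at 107 ± 8.87, Eef1e1 at 101 ± 14.0 and Dars at 100.4 ± 4.95. Rars at 63.4 ± 2.26, Mars2 at 54.5 ± 4.17 and Tars at 51.9 ± 5.44 lay near the median row, and Iars2 was lowest at 16.6 ± 2.63. The ranges over mice overlapped between the neighbours Hars and Aimp1, Qars and Eef1e1, Eef1e1 and Dars, and Mars2 and Tars. The other neighbours did not overlap. Dars and Iars2 have 2 or more accessions, and the treatment of reads matching several transcripts is not given. Their places in this order, and their ratios to total mRNA below, are uncertain for that reason. Aimp1 overlaps Tbck and Iars2 overlaps Rab3gap2, Mir194-1 and Mir215 in the annotation. Hars overlaps Hars2 there only from 36783202 to 36783205 on chromosome 18. The strand setting of the counting is not given in the sources used here. Reads of Aimp1 and Iars2 may therefore be split or mixed, and those of Hars over that short stretch.

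**Figure D2:**
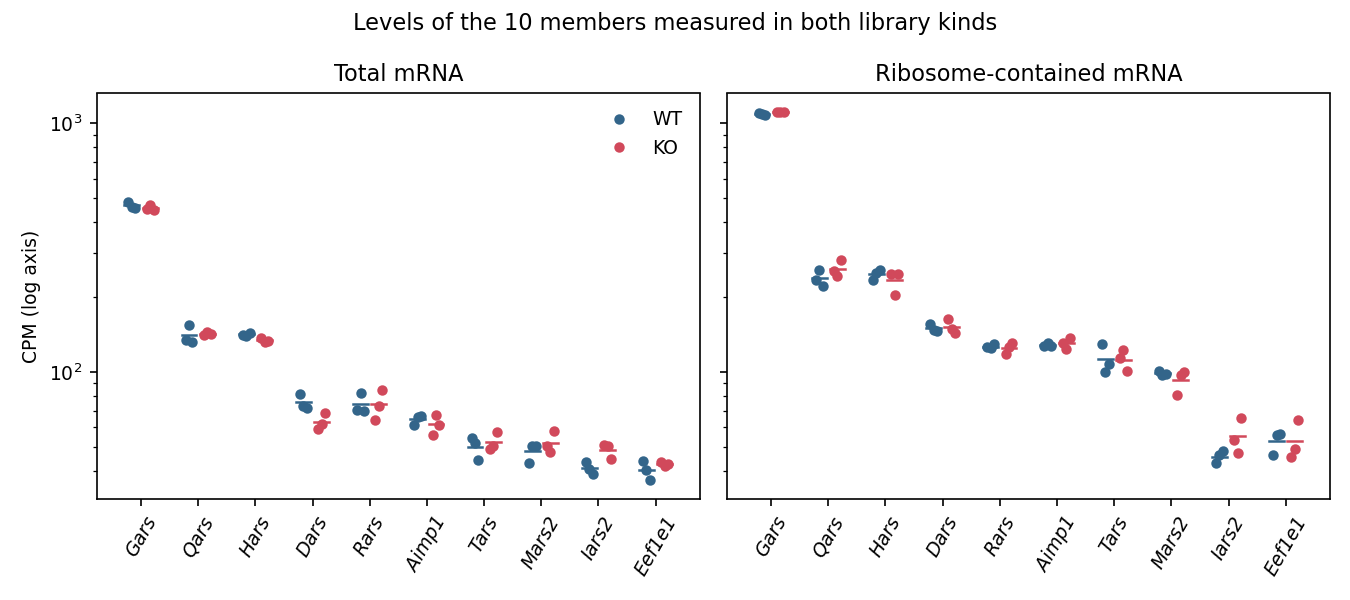
CPM in each library of the 10 measured members on a log axis, with total and ribosome-contained mRNA in separate panels and WT and KO mice as separate points and short lines at the genotype means. Gars lies above the other 9 genes in every library, and the genotypes lie close together beside the distances between genes.

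No member passed the test for genotype in total mRNA. Of the 13 members that passed the filter on low counts (8 cytosolic, 3 mitochondrial and 2 auxiliary), 0 had an adjusted p under 0.05 by edgeR's quasi-likelihood test with Benjamini-Hochberg adjustment over all 8206 rows. DESeq2 gave an adjusted p for 10 of the 13 (none for Mars1, Nars2 and Vars) and called 0. Over all rows 0.329% were called. An unadjusted p under 0.05 was found for 1 member, Dars, against 8.15% of all rows. The KO over WT difference was positive for 9 of 13 members, with a median log2 of 0.06 against 0.01 over all rows. In bulk brain, fewer cells of a type and less mRNA per cell cannot be told apart.

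Dars encodes the aspartate enzyme of the multi-synthetase complex and lies on chromosome 1 at 128363707 to 128417416. Its total mRNA level was 81.9, 72.9 and 71.5 CPM in the WT and 59.0, 61.9 and 68.4 CPM in the KO mice. All KO mice lay below all WT mice, with WT replicate 1 highest. The means were 75.4 ± 5.63 and 63.1 ± 4.81 CPM (SD, n = 3), a log2 difference of -0.26 (SE 0.104), with an unadjusted p of 0.0150 and an adjusted p of 0.463 by edgeR, and it did not pass the test. Over the alternatives the adjusted p ran from 0.422 to 0.802.

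Iars2, the mitochondrial isoleucine enzyme (chromosome 1, 185286642 to 185329419), lay the other way. Its total mRNA level was 43.5, 40.7 and 39.0 CPM in WT and 50.7, 50.6 and 44.7 CPM in KO mice, again without overlap. The log2 difference was 0.24 (SE 0.124; edgeR, adjusted p = 0.623). Hars (chromosome 18, 36766528 to 36783205) was the third member without overlap, at 141, 140 and 144 CPM in WT and 137, 132 and 133 CPM in KO mice, a log2 difference of -0.08 (SE 0.0740; edgeR, adjusted p = 0.837). Groups without overlap were thus found in 3 of 13 members and in 13.3% of all 8206 rows.

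The remaining members of total mRNA showed no such separation. Gars had 484, 462 and 456 CPM in WT and 451, 468 and 447 CPM in KO mice, and its log2 difference of -0.04 had a 95% interval of -0.14 to 0.06. Qars, whose enzyme is also in the complex, had 134, 155 and 133 CPM in WT and 141, 145 and 142 CPM in KO mice (log2 0.03). The intervals of these abundant genes were narrow, whereas low counts left wide ones for Nars2 (mitochondrial asparagine; log2 0.45, -0.28 to 1.18), Mars1 (methionine; 0.49, -0.48 to 1.45) and Vars (0.30, -0.36 to 0.97). Without 1 mouse, Nars2 ran from 0.26 (WT replicate 3 left out) to 0.66 (WT replicate 2), Mars1 from 0.21 (KO replicate 3) to 0.76 (KO replicate 2) and Vars from 0.15 (WT replicate 3) to 0.59 (WT replicate 1). Nars2 had 3.78, 5.46 and 2.95 CPM in WT and 6.22, 4.29 and 5.55 CPM in KO total mRNA, and all of its 86 counts were in total mRNA. Nars2 has 16 accessions, so the lack of counts in ribosome-contained mRNA does not bound its level there. The Mars1 row is a predicted transcript model of a gene that overlaps Ddit3. Rars, Tars, Mars2, Aimp1 and Eef1e1 had log2 differences between -0.07 and 0.12.

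**Figure D3:**
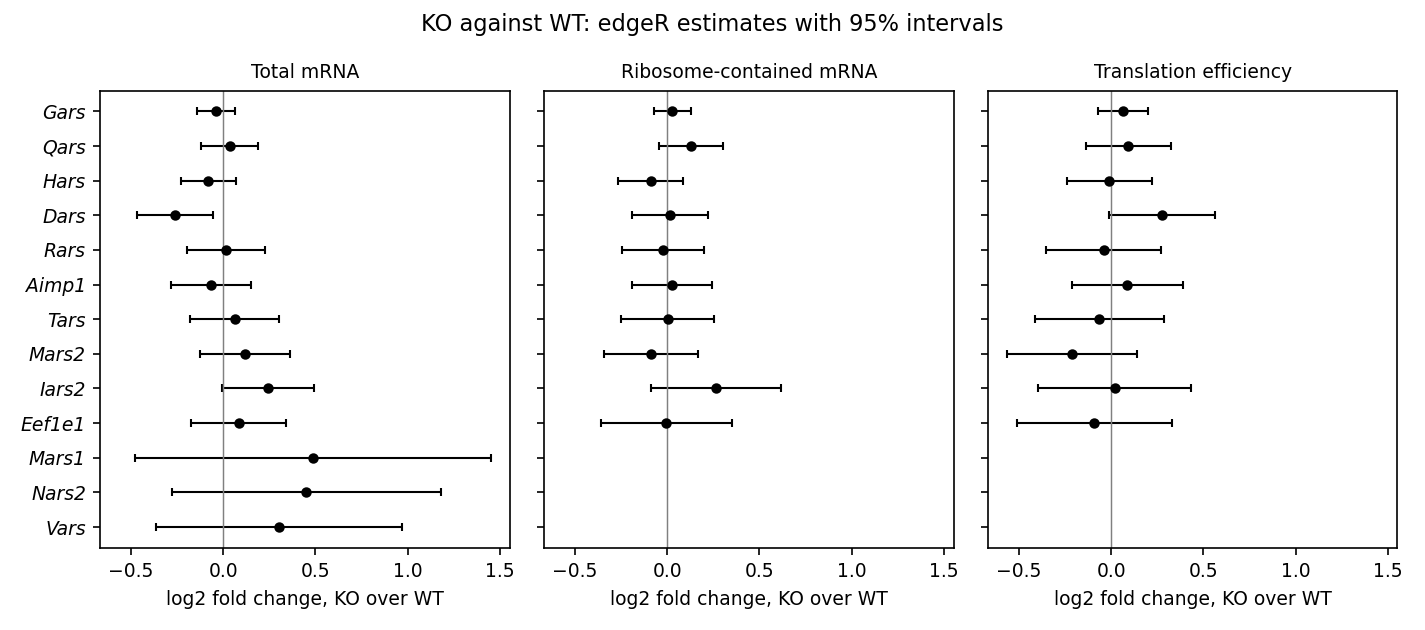
KO over WT log2 difference with its 95% interval (edgeR) for each member tested, in total mRNA, in ribosome-contained mRNA and in translation efficiency (their ratio). Dars in total mRNA is the only member whose interval leaves out 0, and none passed the adjusted threshold.

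In ribosome-contained mRNA 10 members were tested, and 0 were called by edgeR (adjusted p under 0.05) and 0 by DESeq2, against 0.211% of 4749 rows. No member had an unadjusted p under 0.05 (0 of 10), against 9.48% of all rows. The difference was positive for 6 of the 10, and the median log2 of 0.01 was near the 0.00 of all rows.

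Gars was the 1 member of 10 without overlap, where 14.7% of all rows had none. Its level was 1105, 1087 and 1079 CPM in WT and 1111, 1112 and 1109 CPM in KO mice, which sets the KO mice slightly above. The means of 1090 ± 13.1 and 1111 ± 1.69 CPM differed by a log2 of 0.03 (SE 0.0493; edgeR, adjusted p = 0.924), with an interval of -0.07 to 0.13.

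Qars had the smallest p in ribosome-contained mRNA. It lay at 235, 258 and 222 CPM in WT and 255, 244 and 282 CPM in KO mice, with overlap, and a log2 difference of 0.13 (SE 0.0844; edgeR, adjusted p = 0.679), which was 0.07 without KO replicate 3 and 0.08 without WT replicate 3. Iars2 had 42.9, 46.2 and 48.0 CPM in WT and 53.1, 47.2 and 65.3 CPM in KO mice, a log2 difference of 0.26 (SE 0.173; edgeR, adjusted p = 0.683). Here KO replicate 2 fell within the WT range, and without KO replicate 3 the difference was 0.13. Hars had 235, 249 and 258 CPM in WT and 248, 204 and 249 CPM in KO mice, with KO replicate 2 lowest (log2 -0.09, SE 0.0869; edgeR, adjusted p = 0.816).

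For Dars the genotypes overlapped here. Its ribosome-contained level was 156, 148 and 146 CPM in WT and 163, 149 and 143 CPM in KO mice, with a log2 difference of 0.02 (interval -0.19 to 0.22). The auxiliary genes lay near 0 as well. Aimp1, a scaffold of the complex (chromosome 3, 132660498 to 132684390), had 128, 131 and 127 CPM in WT and 131, 124 and 137 CPM in KO mice. Eef1e1 (chromosome 13, 38645691 to 38659028) had 46.2, 55.8 and 56.4 CPM in WT and 45.4, 49.0 and 64.3 CPM in KO mice. Aimp2, with 63 counts in all, lay between 0.315 and 2.48 CPM in total mRNA and between 3.84 and 7.13 CPM in ribosome-contained mRNA and was tested in neither.

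Translation efficiency, ribosome-contained over total mRNA, was compared between genotypes as the interaction term of 1 model that held all 12 libraries. Of 10 members 0 were called by edgeR and 0 by DESeq2, of all 4601 rows 0% were called, and an unadjusted p under 0.05 was found for 0 members and for 4.96% of all rows. Dars came closest. Its log2 ratio was 0.60, 0.69 and 0.69 in the WT and 1.11, 0.93 and 0.74 in the KO mice, with every KO mouse above every WT mouse. The log2 difference was 0.28 (SE 0.143) with an unadjusted p of 0.0607 and an adjusted p of 0.960 by edgeR, and it was 0.18 without KO replicate 1.

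Gars was the other member without overlap in the ratio, with 0.86, 0.90 and 0.91 in WT and 0.95, 0.91 and 0.99 in KO mice and a log2 difference of 0.06 (SE 0.0679; edgeR, adjusted p = 0.998). That made 2 of 10 members, against 11.5% of all rows. Mars2, which charges the methionine tRNA of mitochondria, had log2 ratios of 0.89, 0.61 and 0.62 in WT and 0.33, 0.70 and 0.46 in KO mice. WT replicate 1 was the highest and KO replicate 1 the lowest, and the log2 difference was -0.21 (SE 0.175; edgeR, adjusted p = 0.998). It was -0.11 without the first of these mice, -0.14 without the second and -0.32 without KO replicate 2.

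Between the kinds of library most measured members differed. Relative to the other rows, 8 of 10 were higher in ribosome-contained than in total mRNA and 0 were lower (edgeR, adjusted p under 0.05). Over all 4601 rows 80.3% were called, 40.4% higher and 39.8% lower. The median log2 ratio of the members was 0.54, against 0.02 over all rows. The kinds were prepared differently, as ribosome-protected fragments and as polyadenylated RNA, so the ratio holds that difference too.

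**Figure D4:**
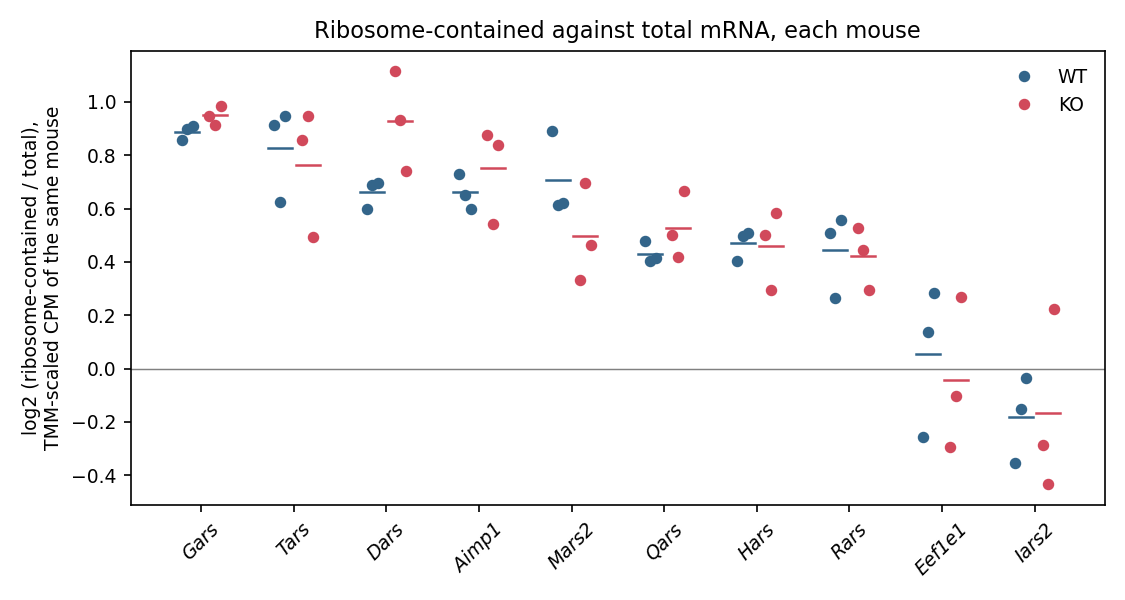
Log2 of ribosome-contained over total mRNA in each of the 6 mice for the 10 members, with WT and KO mice as separate points and short lines at the genotype means. Gars lies between 0.86 and 0.99, and Iars2 and Eef1e1 lie on both sides of 0.

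Gars was 1.89 times as high in ribosome-contained as in total mRNA (95% interval 1.80 to 1.98; log2 0.92, adjusted p = 1.78e-27), and in all 6 mice its log2 ratio lay between 0.86 and 0.99. Tars (chromosome 15, 11383663 to 11399658) had a log2 ratio of 0.80 (SE 0.0872; edgeR, adjusted p = 3.11e-11). By mouse it was 0.91, 0.62 and 0.95 in WT and 0.86, 0.95 and 0.49 in KO mice, above 0 in 6 of 6. Dars had a ratio of 0.79 (SE 0.0718; edgeR, adjusted p = 1.46e-13), with all 6 mice above 0 as given above. Aimp1 at 0.70, Mars2 at 0.60, Qars at 0.48 and Hars at 0.47 were also higher in 6 of 6 mice.

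Rars, the arginine enzyme (chromosome 11, 35808381 to 35834528), was the lowest of the 8 at 0.43 (SE 0.0775; edgeR, adjusted p = 2.67e-06). Its mice had 0.51, 0.26 and 0.56 in WT and 0.53, 0.44 and 0.30 in KO. Eef1e1 had a log2 ratio of 0.02 (SE 0.105; edgeR, adjusted p = 0.887), with 3 of 6 mice above 0. By mouse it was -0.26, 0.14 and 0.28 in WT and -0.30, -0.10 and 0.27 in KO mice. Iars2 had -0.17 (SE 0.103; edgeR, adjusted p = 0.131), with 1 of 6 mice above 0, at -0.35, -0.15 and -0.04 in WT and -0.29, -0.43 and 0.22 in KO mice. Without KO replicate 3, the mouse above 0, Iars2 was called lower at -0.26 (edgeR, adjusted p = 0.0332). Scaled by library totals alone, Iars2 turned to 0.08 and Eef1e1 was called higher at 0.27 (edgeR, adjusted p = 0.0199), since that scaling moved the median of all rows from 0.02 to 0.26.

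By role, all 6 cytosolic enzymes tested were called higher, against 1 of 2 mitochondrial enzymes and 1 of 2 auxiliary genes. Of all 4601 rows 40.4% were called higher. The split by role was not tested and rests on 2 genes in each of the smaller groups. The 11 genes of the multi-synthetase complex had 5 tested (Dars, Qars, Rars, Aimp1 and Eef1e1), of which 4 were called higher, with a median log2 of 0.48. The tested rows share their ribosome-protected and total libraries, so they are not independent.

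The coding share of a transcript can be set beside this ratio. It was 93.9% for Rars, 91.9% for Gars, 85.0% for Aimp1, 83.0% for Qars, 76.8% for Hars, 69.1% for Dars, 55.5% for Iars2, 54.1% for Tars, 20.4% for Eef1e1 and 15.6% for Mars2, with a median of 46.4% over 4046 rows. The Mars2 value used a GENCODE transcript of 11294 bases. In RefSeq the gene spans only chromosome 1 at 55237177 to 55240058, which is shorter, so 15.6% is too low for the row that was counted. Across all rows the share and the log2 ratio had a Pearson r of 0.285 and a Spearman rho of 0.312. Across the 10 members, with that Mars2 value, the r was 0.38 and the rho 0.16, and over 9 without Mars2 the r was 0.56 and the rho 0.25. These are across genes of the same libraries, not independent replicates. The part of coding share in the members' ratios was not tested. The share of phenylalanine codons and the KO over WT difference in ribosome-contained mRNA had an r of 0.01 over all rows and of -0.02 over the 10 members.

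At the A site, the share of codons of each amino acid was set beside its enzyme. Phenylalanine codons took 2.42%, 2.59% and 2.41% of sense codons in the WT and 3.35%, 3.26% and 3.33% in the KO mice, without overlap. The log2 difference was 0.43 (SE 0.0297; edgeR, adjusted p = 1.48e-22), for an amino acid whose enzyme genes Farsa and Farsb were not measured. Of the 20 amino acids, 4 were called, or 20%.

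Alanine, aspartate and glycine were called lower, each by a log2 of about -0.07. Aspartate codons took 6.53%, 6.48% and 6.57% in WT and 6.38%, 6.14% and 6.18% in KO mice (edgeR, adjusted p = 0.0461). For its enzyme gene Dars the KO over WT log2 difference was -0.26 in total and 0.02 in ribosome-contained mRNA, neither of which passed the test. Glycine codons took 7.39%, 7.45% and 7.36% in WT and 7.05%, 7.05% and 7.11% in KO mice (edgeR, adjusted p = 0.0464), beside Gars at -0.04 and 0.03. Alanine codons took 7.01%, 7.03% and 7.20% in WT and 6.77%, 6.73% and 6.73% in KO mice (edgeR, adjusted p = 0.0297), and Aars had 1 count in all. All KO mice lay below all WT mice for these 3 amino acids. These 3 calls were lost with DESeq2 and without WT replicate 2 or WT replicate 3, which left 1 call, phenylalanine. With 1 mouse left out in turn, alanine was called in 4 of 6 fits, glycine in 3 of 6 and aspartate in 1 of 6, the fit without KO replicate 1. Glycine was also lost without WT replicate 1 and with TMM (edgeR, adjusted p = 0.122), and aspartate with the replicate block (edgeR, adjusted p = 0.0960). The shares of a library sum to the whole and are not independent of each other.

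**Figure D5:**
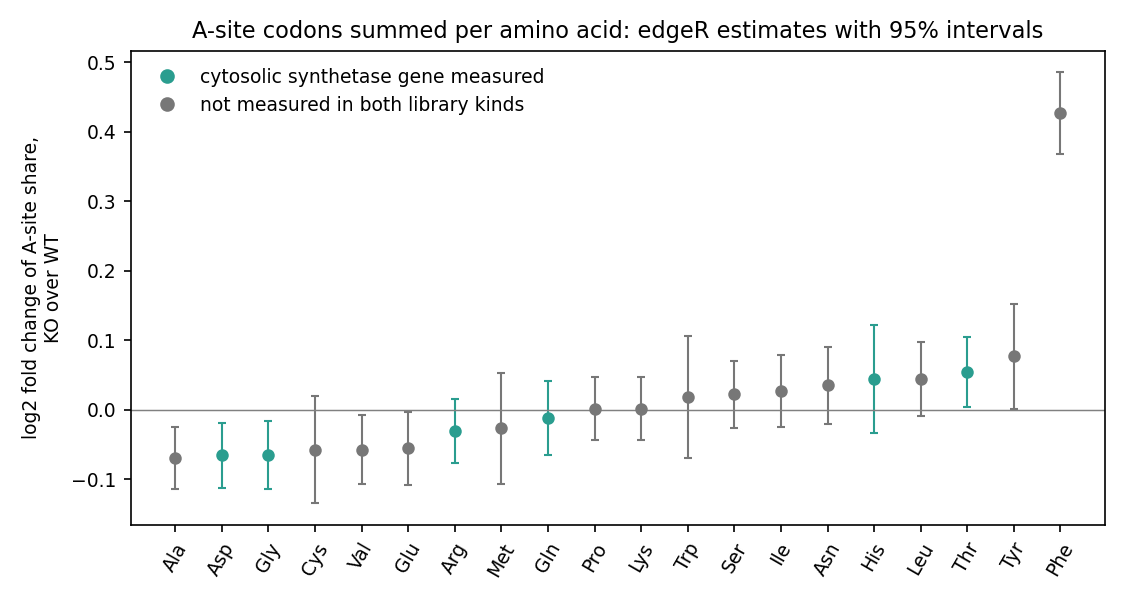
KO over WT log2 difference in the share of A-site codons for each of the 20 amino acids with its 95% interval, with amino acids whose cytosolic enzyme gene was measured marked apart. Phenylalanine lies at 0.43, and the other 19 lie between -0.07 and 0.08.

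Arginine, glutamine, histidine and threonine, the other amino acids with a measured cytosolic enzyme, had A-site differences of -0.03, -0.01, 0.04 and 0.05, none of which passed the test. The corresponding enzymes Rars, Qars, Hars and Tars had total mRNA differences of 0.02, 0.03, -0.08 and 0.06.

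Genes that act around the synthetases were read from lists of related function. The 15 related enzymes include Ears2 and Pars2, and enzymes that edit wrongly charged tRNAs or complete the charging of mitochondrial ones. Of these 15, 8 were tested in total and 4 in ribosome-contained mRNA and 0 were called with genotype by edgeR. Of 14 genes that deliver charged tRNA to the ribosome, 11 were tested in total and 10 in ribosome-contained mRNA, and 1 was called in each, Eef1a2, where 0.329% and 0.211% of all rows were called. This gene encodes the elongation factor that brings charged tRNA to the A site in neurons and muscle. Its level was 2336, 2344 and 2158 CPM in WT and 2617, 2641 and 2636 CPM in KO total mRNA, and 4811, 4811 and 4598 CPM in WT and 5292, 5452 and 5454 CPM in KO ribosome-contained mRNA. All KO mice lay above all WT mice in both, and the gene was higher in KO by a log2 of 0.21 in total (SE 0.0439; edgeR, adjusted p = 0.0113) and 0.19 in ribosome-contained mRNA (SE 0.0410; edgeR, adjusted p = 0.0412). Of 28 genes of the response to uncharged tRNA and amino acid shortage, 16 were tested in total mRNA and 0 were called by edgeR, with 6 at an unadjusted p under 0.05 (8.15% of all rows) and a median log2 of 0.16, against 0.01 over all rows. The KO over WT difference was positive for 11 of the 16, among them all of those 6. Atf5 lay just above the threshold (log2 1.05; edgeR, adjusted p = 0.0541). The negative ones were Asns (log2 -0.19), Atf4 (-0.18), Slc3a2 (-0.16), Chac1 (-0.07) and Ddit4 (-0.03). In ribosome-contained mRNA 0 of 15 were called and 3 had an unadjusted p under 0.05 (9.48% of all rows). There 9 of the 15 were positive, among them all of those 3. Some synthetase genes are known to be induced by that response. The median of 0.06 given above for total mRNA covers only the 13 members tested. Aars, Eprs, Iars, Lars, Sars and Yars are among those not tested, so that median does not show whether they changed. The members tested were not sorted by whether that response induces them. Those tested include Gars (log2 -0.04), Tars (0.06) and Mars1 (0.49), and none was called.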

How the data were processed

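For 12 libraries the authors deposited unnormalized read counts by RefSeq transcript, and for 6 libraries counts of A-site codons, per the file headers; all values were whole numbers, and no per-sample column was left unused. Bowtie2, HISAT2, HTSeq and build mm10 are named per the submitters' processing notes; their roles, the strand setting and the treatment of reads matching several transcripts are among the things not given in the sources used here. The ribosome columns were assigned to their instrument from the names of the tables.

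Accessions were matched to symbols with RefSeq genes of GRCm38 (86040 rows, 98.0% of counts), and sequences came from GENCODE transcripts of that build. Counts were fitted with edgeR 4.0.16 (quasi-likelihood; R 4.3.3, limma 3.58.1) with TMM and the edgeR filter (minimum count 10, minimum total 15), each kind alone for genotype and all 12 libraries together for translation efficiency and for the contrast of kinds. A-site codons were summed per amino acid, with the sum of sense codons as library size. P-values were Benjamini-Hochberg adjusted over all rows (threshold 0.05). Levels are CPM scaled by TMM within each kind, and ratios per mouse are scaled by TMM over both. Scripts were tested on simulated data. Replicates are separate mice, 3 per genotype.

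Alternatives were RLE size factors, no filter, summed accessions, DESeq2 1.42.0, a replicate block and leaving out each mouse. Total and ribosome-contained libraries of 1 number come from the same mouse; their deviations from the group means correlated at 0.03 to 0.16. Across genotypes the numbers were not taken to pair the mice.

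Members, lists and tests were chosen with earlier results of these data known. Values by library are given for the phenylalanine enzymes, the 3 smallest p per genotype comparison, the 3 highest and lowest ratios, the 3 most abundant members, the auxiliary genes, called genes of the lists and called amino acids. Per-library values of other measured members were added after their values were seen. Some items are not reported here.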

Additional observations from a re-analysis of the deposited data

Results flagged for a closer look

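Some members had counts on accessions other than the one described, which the comparisons did not use. Over the 12 libraries a second accession of Dars had 4 counts, one of Iars 7 and one of Lars 11, and the other accessions of Vars had 8 and 23. All lie far under 120 counts, and there was no control for them. With all accessions of a gene summed, the number of members called stayed at 0 in each comparison of genotype and at 8 between the kinds of library.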

How the results depend on the processing

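The count of members called with genotype was 0 under every alternative run, in total mRNA, ribosome-contained mRNA and translation efficiency. Between the kinds of library 8 to 9 members were called when 1 mouse was left out, 9 of 10 with library totals only (added after the data were seen) and 15 of 31 with no filter on low counts, where more genes were tested. At the A site 4 amino acids were called, 1 to 6 when 1 mouse was left out, 3 with TMM and 1, phenylalanine, with DESeq2. Where 6 were called, some were amino acids that the main fit did not call. The cause of these shifts was not tested.

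With the replicate block, members called numbered 0, 0 and 0 for genotype and 8 between kinds of library, and 4 amino acids were called, with aspartate lost (edgeR, adjusted p = 0.0960). These 4 thus take in an amino acid that the main fit did not call. The block is the mouse between kinds. Across genotypes same-numbered mice correlated at -0.07 to 0.01 in total and at 0.02 to 0.03 in ribosome-contained mRNA. Mice of different numbers correlated at -0.05 to 0.07 and at -0.025 to 0.0019. The same-numbered values were thus the higher ones in ribosome-contained mRNA only. All lie near 0, and the numbers were not taken to pair the mice.

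Values near 0 that changed sign passed no test. In ribosome-contained mRNA the KO over WT log2 of Tars was -0.0082 with no filter and -0.0020 with the block, and that of Eef1e1 was 0.0045 with the block. With library totals only, Iars2 was -0.0070 in translation efficiency and 0.080 between kinds. Leaving out 1 mouse, total mRNA gave -0.0096 to 0.096 for Qars, -0.099 to 0.11 for Rars and -0.031 to 0.14 for Tars. Ribosome-contained mRNA gave -0.041 to 0.057 for Dars, -0.14 to 0.00028 for Hars, -0.055 to 0.012 for Rars, -0.069 to 0.11 for Tars, -0.0092 to 0.062 for Aimp1 and -0.16 to 0.088 for Eef1e1. Translation efficiency gave -0.075 to 0.054 for Hars, -0.14 to 0.026 for Rars, -0.17 to 0.068 for Tars, -0.19 to 0.14 for Iars2 and -0.26 to 0.028 for Eef1e1, and the kinds of library gave -0.062 to 0.097 for Eef1e1. Low counts limit the table: 28 of the 38 genes had fewer than 120 counts.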
